A study of Sus scrofa with 12 samples.

Results

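The comparison described here set any stromal cell secretome against placebo in infarcted pig hearts. A secretome is the mixture of soluble proteins and vesicles that cultured cells release into their medium. The 8 arrays titled AMI/S-endMSCs or AMI/S-endMSCs* were pooled and set against the 4 arrays titled AMI/Placebo, which makes all 12 arrays of the series, with 1 array per pig and 4 pigs per biogroup. AMI/S-endMSCs pigs received the secretome of mesenchymal stromal cells grown from human menstrual blood, AMI/S-endMSCs* pigs the secretome of such cells primed with the cytokines IFNγ and TNFα, and AMI/Placebo pigs the medium in which the secretomes were concentrated. Every pig was a female Large White with an acute myocardial infarction made by occluding and reopening a coronary artery, and every treatment was delivered into the pericardial sac. RNA of the infarcted heart tissue was collected on day 7 after therapy. The paper reports that therapy was given some days after infarction, so the infarct was older than this. The series holds no tissue of pigs without infarction or of infarcted pigs without an injection, so placebo is the only baseline, and the human origin of the secretomes is shared by both treated biogroups. A gene was counted as a member where its difference from placebo had the same sign with both secretomes. Of 10912 genes with a symbol, 6801 met this rule (3496 higher and 3305 lower with secretome), and 4111 had opposite signs.

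During infarct healing, the necrotic muscle is cleared by macrophages, which use complement and Fc receptors to take up debris. Activated fibroblasts lay down a collagen scar and new vessels sprout from the border. Mesenchymal stromal cells are known to act on this process mainly through what they secrete, and inflammatory cytokines change the content of their secretome. The question was which transcripts of the infarcted area stood apart from placebo whichever secretome was given.

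The values are log2 intensities after Robust Multichip Average (RMA) normalization, 1 probe set per gene, and a difference of 1 is a doubling on this scale. The expected cells were present: 15 cardiomyocyte markers averaged 7.37 ± 1.43 (SD, n = 8) in the treated tissue and 7.15 ± 0.958 (n = 4) in placebo tissue. This mean ranged over 5.34-9.04 in the treated arrays and 5.93-8.10 in the placebo arrays, so the level of these markers varied widely within both. The interquartile range of the values of an array, a measure of its contrast, was 2.08 ± 0.271 in treated and 2.23 ± 0.312 in placebo arrays. Mean correlation with the other arrays was lowest in AMI/S-endMSCs 1 (0.821), AMI/Placebo 4 (0.875) and AMI/S-endMSCs* 4 (0.876), and reached 0.911 elsewhere. In bulk tissue, fewer cells of a type and less RNA per cell cannot be told apart.

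The limma model (1 mean per biogroup, values of all pigs) called 300 genes at the unadjusted p under 0.05 that the study used, which is 2.75% of the genes tested, and 0 genes after Benjamini-Hochberg adjustment (smallest adjusted p = 0.999). Such a threshold alone passes 5.0% of unchanged genes, or 546 here, so the number of calls was below that and no single call below carries support from the adjusted test. Higher calls were 141 (1.29%) and lower calls 159 (1.46%). With each array centred on its median the split was 90 higher and 214 lower. Of the 300 genes, 298 moved the same way with both secretomes (139 higher, 159 lower) and are the called members. The other 2 were LPL and LOC100155266. Differences of the called genes lay between -1.38 and 1.57, with a median size of 0.612, while the median over all genes was 0.0131. Leaving out AMI/Placebo 4 raised the number of calls to 778, leaving out AMI/S-endMSCs* 2 raised it to 514, and leaving out AMI/Placebo 1 lowered it to 184, of which 121 belonged to the 298.

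Level and direction went together, as the plot of difference against level shows. Among genes brighter than 2.78, the middle level of the probe sets, 0.891% were called higher and 2.07% lower, and 38.9% were lower with both secretomes against 21.0% higher. Dimmer genes ran the other way, with 1.75% called higher, 0.748% called lower, and 44.7% higher with both secretomes against 20.4% lower. The contrast of the arrays, which was also lower on average in the treated tissue, moves with this pattern, and its part in it was not tested. With the interquartile range as a covariate 332 genes were called, 156 higher and 176 lower, and 176 of the 298 members were still called.

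**Figure D1:**
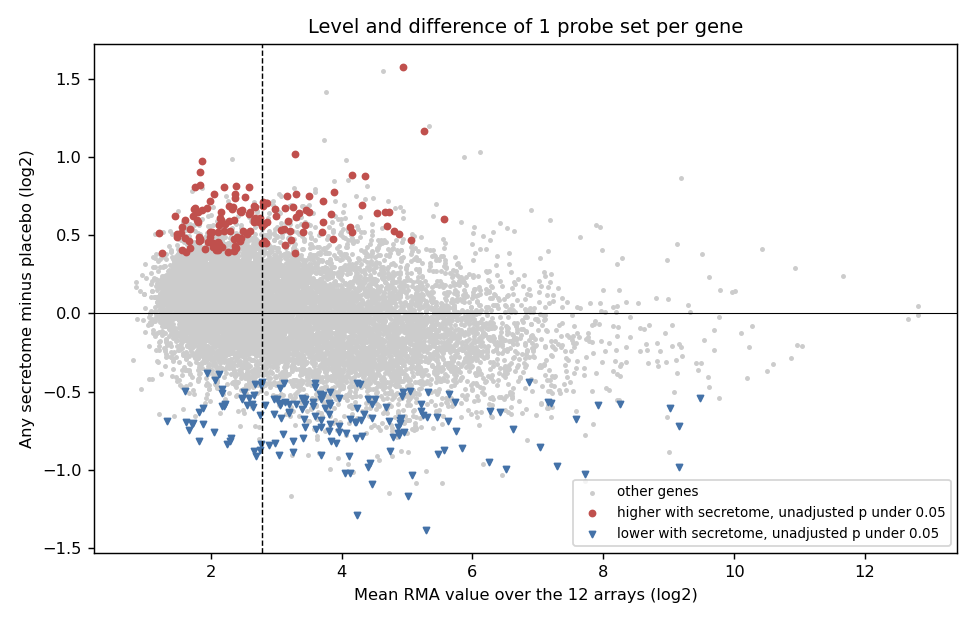
Difference between the means of the treated and placebo arrays (any secretome minus placebo, log2) against the mean RMA value over the 12 arrays (log2) for 10912 genes, with the 139 higher and 159 lower members in colour. The dashed line marks 2.78, the middle level of the probe sets; higher members lie mostly to its left and lower members mostly to its right.

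Separation of single pigs was rare. In 29 genes (0.266% of all) the 8 treated arrays all lay on one side of the 4 placebo arrays, 19 above (0.174%) and 10 below (0.0916%). Of these, 26 were called, 17 higher and 9 lower, and the 3 others were LOC100522375 (0.35, limma p = 0.0519, exact p = 0.00202), SLC35F4 (0.35, limma p = 0.0584, exact p = 0.00404) and PAFAH1B3 (-0.37, limma p = 0.0581, exact p = 0.00808). Only 11 of the 26 were brighter than this middle level in treated or placebo arrays, and they are described next. DAPK2, YOD1, GPR153 and MAMLD1 passed it by their treated mean only, and TMEM86A and FREM1 by their placebo mean only. For these genes the level filter is not independent of the difference.

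Higher with no overlap were DAPK2, YOD1, GPR153 and MAMLD1. DAPK2, a calcium/calmodulin-dependent kinase of the death-associated family, ran from 3.18 through a median of 3.43 to 3.64 in the 8 treated arrays, against 2.76, 2.71, 2.97 and 2.22 in placebo. Its AMI/S-endMSCs values (3.47-3.64) all stood above its AMI/S-endMSCs* values (3.18-3.39), and both stood above placebo. The difference was 0.75 ± 0.18 (SE, limma p = 0.000922, exact p = 0.00202), 0.89 with S-endMSCs and 0.60 with S-endMSCs*. YOD1, a deubiquitinating enzyme, ran from 2.66 through 2.88 to 3.37 with secretome, against 2.63, 2.51, 2.19 and 2.05 with placebo. The gap between the lowest treated and the highest placebo array was narrow, and the difference was 0.61 ± 0.20 (limma p = 0.00926, exact p = 0.00404). GPR153, an orphan G protein-coupled receptor, ran from 2.69 through 2.97 to 3.24 in treated arrays, against 2.22, 2.64, 2.32 and 2.50 in placebo arrays. Its difference was 0.56 ± 0.18 (limma p = 0.00935, exact p = 0.00404). MAMLD1, a mastermind-like transcriptional coactivator, spanned 2.94-3.61 with secretome around a median of 3.22, against 2.76, 2.28, 2.92 and 2.94 with placebo. The groups met at 2.94 to 2 decimals, and the difference of 0.53 ± 0.20 (limma p = 0.0178, exact p = 0.00202) lost its call without AMI/Placebo 2 (limma p 0.0852).

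Lower with no overlap were TMEM86A, SLC38A7, SNX12, RPS2, HSDL1, FREM1 and SAP25. TMEM86A, an enzyme of plasmalogen lipid breakdown, had the smallest p of all members. It ran from 2.05 through a median of 2.47 to 2.54 in treated arrays, against 3.56, 3.28, 3.09 and 3.28 in placebo arrays. More than the whole treated range separated the groups, at a difference of -0.91 ± 0.17 (limma p = 0.00011, exact p = 0.00202), which is a level lower by 1.88-fold. The difference was -0.80 with S-endMSCs and -1.02 with S-endMSCs*. SNX12, a sorting nexin of endosomes, ran from 3.25 through 3.71 to 3.89 with secretome, against 4.22, 3.96, 4.46 and 4.22 with placebo. Here the S-endMSCs* arrays reached lowest, and the difference was -0.58 ± 0.18 (limma p = 0.00602, exact p = 0.00202). SLC38A7, a lysosomal glutamine transporter, ran from 2.70 through 3.17 to 3.61 with secretome, against 3.76, 3.67, 3.64 and 4.16 with placebo. Its difference was -0.61 ± 0.21 (limma p = 0.00982, exact p = 0.00404), and p was 0.0702 without the 3 arrays of lowest correlation. FREM1, an extracellular matrix protein of basement membranes, ran from 2.20 through 2.49 to 2.71 in treated arrays, against 3.41, 2.94, 2.81 and 2.92 in placebo arrays. The difference of -0.58 ± 0.18 (limma p = 0.00727, exact p = 0.00202) was nearly the same with S-endMSCs (-0.58) and S-endMSCs* (-0.57).

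The other 3 genes of this kind were RPS2, HSDL1 and SAP25. RPS2, a protein of the small ribosomal subunit, ran from 2.55 through 3.09 to 3.47 with secretome, against 3.49, 3.51, 3.76 and 3.61 with placebo. Its difference was -0.58 ± 0.21 (limma p = 0.0171, exact p = 0.0101). Every RPS2 value is low on the scale of these arrays, where RPS3, of the same subunit, stood at 10.56-11.48. The limma p was 0.0524 without AMI/Placebo 3 and 0.0573 without the 3 arrays of lowest correlation. HSDL1, a hydroxysteroid dehydrogenase-like protein, ran from 2.29 through 3.21 to 3.42 with secretome, against 3.89, 3.73, 3.66 and 3.50 with placebo. The lowest array, AMI/S-endMSCs* 4, stood far from the other 3 of its biogroup, and without AMI/Placebo 1 the difference of -0.58 ± 0.23 (limma p = 0.023, exact p = 0.0101) had a limma p of 0.0691. SAP25, a subunit of the Sin3 corepressor complex, ran from 2.66 through 3.05 to 3.28 with secretome, against 3.38, 3.57, 3.28 and 3.41 with placebo. The groups met at 3.28, and leaving out any of AMI/Placebo 1, 2 and 4, AMI/S-endMSCs 1 and 2, and AMI/S-endMSCs* 2 took the difference of -0.44 ± 0.19 (limma p = 0.0331, exact p = 0.0101) past the threshold (p up to 0.0902). So did leaving out the 3 arrays of lowest correlation together.

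**Figure D2:**
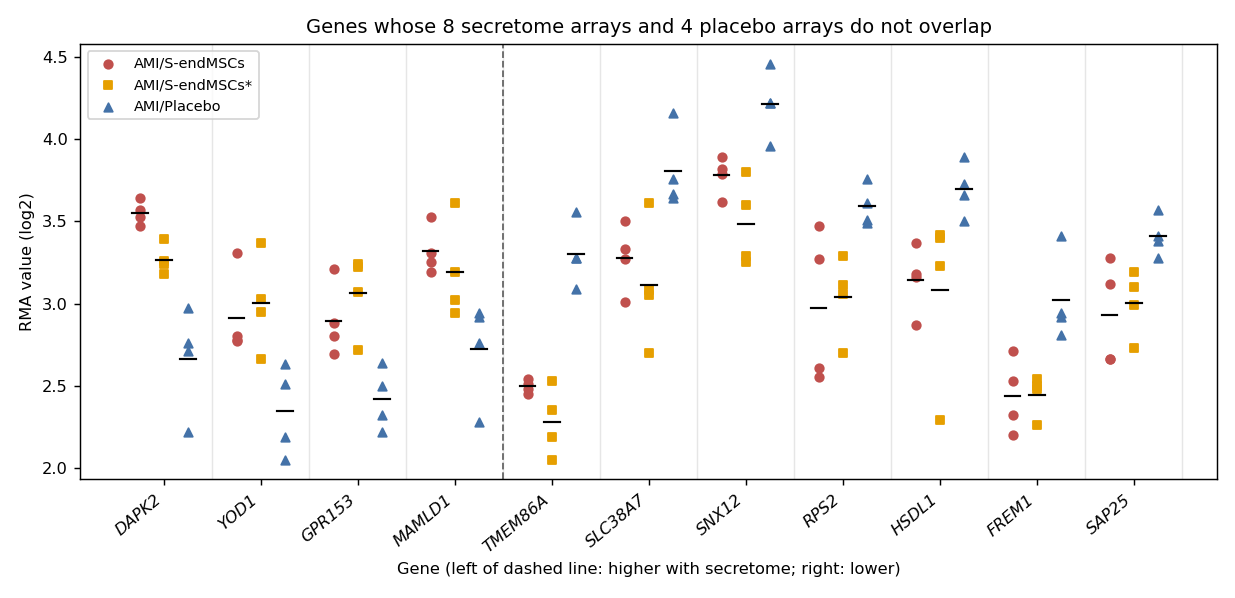
RMA value (log2) of each array for the 11 called genes whose treated and placebo arrays do not overlap and whose treated or placebo mean exceeds the middle level. AMI/S-endMSCs, AMI/S-endMSCs* and AMI/Placebo stand from left to right within a gene, with a bar at each mean of 4 arrays. DAPK2 and TMEM86A show the clearest gap, and MAMLD1 and SAP25 touch at 2 decimals.

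Exact permutation of the 12 arrays into 8 and 4 gives 495 divisions and a smallest two-sided p of 0.00202. The genes above were picked because their treated and placebo arrays do not overlap, and that separation by itself puts their exact p at or near this floor. Their exact p therefore describes the choice and adds no support.

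Scar matrix genes were lower with both secretomes in most cases. Of 18 measured genes of the fibroblast and scar matrix list, 2 fell, 0 rose, and 15 were lower with both secretomes. Over all genes brighter than 2.78, 2.07% were called lower and 38.9% were lower with both secretomes. The median difference of the list was -0.49, the same with S-endMSCs (-0.49) and near it with S-endMSCs* (-0.43), beside -0.07 over all genes of this brightness. CTHRC1, secreted by activated fibroblasts and known to mark scar-forming cells of the infarct, showed the lowest difference of the called members. It ran from 3.56 through a median of 4.88 to 5.66 in treated arrays, against 5.81, 7.33, 5.48 and 6.26 in placebo arrays. Only AMI/S-endMSCs 2 (5.66) stood above a placebo array, and the difference was -1.38 ± 0.41 (limma p = 0.00454, exact p = 0.00808), or lower by 2.61-fold, with -1.33 for S-endMSCs and -1.43 for S-endMSCs*. THBS1, thrombospondin 1, a matricellular protein that activates TGF-β and restrains vessel growth, ran from 5.72 through 7.12 to 8.04 with secretome, against 8.78, 7.53, 8.52 and 6.95 with placebo. The groups overlapped broadly, and the difference of -0.97 ± 0.42 (limma p = 0.0377, exact p = 0.0667) missed the threshold without AMI/Placebo 1 or 3, AMI/S-endMSCs 1 or 4, or AMI/S-endMSCs* 1 or 4 (p up to 0.149) and in the exact permutation test (p = 0.0667). The interquartile range as a covariate ended the call of THBS1 too. The mean of the list per array ran from -1.57 to 0.644 with secretome, against 0.655, 0.709, 0.443 and -0.472 with placebo. Its lowest values lay in the 3 arrays of lowest correlation. The list median was -0.04 with the interquartile range as a covariate, -0.29 without AMI/Placebo 2, -0.22 without AMI/S-endMSCs 1 and -0.20 without AMI/S-endMSCs* 4.

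NREP and HPSE, which are in none of the gene lists, had small p values among the lower members. NREP, a small intracellular protein known from wound myofibroblasts, ran from 6.43 through 7.42 to 8.19 in treated arrays, against 8.44, 8.68, 8.60 and 7.90 in placebo arrays. One treated array, AMI/S-endMSCs 2, passed AMI/Placebo 4, and the difference was -1.03 ± 0.29 (limma p = 0.00334, exact p = 0.0101), or lower by 2.04-fold. HPSE, heparanase, which cuts heparan sulfate chains of the matrix, ran from 2.64 through 2.84 to 3.60 with secretome, against 3.54, 3.94, 4.70 and 3.20 with placebo. AMI/S-endMSCs 1 and 3 overlapped the placebo arrays, and the difference was -0.88 ± 0.27 (limma p = 0.00587, exact p = 0.0101). The calls of CTHRC1, NREP, HPSE and FREM1 held under all 25 settings that used both secretomes, the exact test included. These genes were picked by small p or by no overlap on the same arrays, so the held calls are no independent support.

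Genes of complement and Fc receptor signalling gave the largest number of lower calls of the 54 gene lists. Of 15 measured, 4 fell (LYN, TYROBP, FCGR2B and C1QB), 0 rose, and 12 were lower with both secretomes. The median was -0.38, with -0.25 for S-endMSCs and -0.60 for S-endMSCs*. Over all genes brighter than 2.78, 2.07% were called lower, 38.9% were lower with both secretomes and the median was -0.07. That background also holds for the other lists whose genes were mostly bright, such as the MHC, Toll-like receptor, interferon and ribosomal lists below. Whether any list exceeds it was not tested. LYN, a Src-family kinase that phosphorylates immune receptors, ran from 2.60 through a median of 2.75 to 2.98 with secretome, against 3.46, 3.54, 3.44 and 2.88 with placebo. All treated arrays stood below 3 placebo arrays and 3 of them above AMI/Placebo 4, at a difference of -0.55 ± 0.19 (limma p = 0.0113, exact p = 0.00808) whose call held under the same 25 settings. FCGR2B, the inhibitory Fc receptor, ran from 3.45 through 3.93 to 4.51 with secretome, against 4.92, 4.86, 5.07 and 3.80 with placebo. The picture was that of LYN, with AMI/Placebo 4 alone among the treated values, and the difference of -0.69 ± 0.28 (limma p = 0.0253, exact p = 0.0343) lost its call without AMI/Placebo 1, 2 or 3 (p up to 0.0932). The interquartile range as a covariate ended the call of FCGR2B too.

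TYROBP, the adaptor that carries the signal of activating myeloid receptors, ran from 4.11 through 5.44 to 5.84 with secretome, against 6.12, 5.84, 6.09 and 5.54 with placebo. The S-endMSCs* arrays held the low values, so that the difference was -0.26 with S-endMSCs and -1.07 with S-endMSCs*, and -0.66 ± 0.26 pooled (limma p = 0.024, exact p = 0.0687). It missed the threshold without AMI/Placebo 1 or 3 and in the exact permutation test (p = 0.0687). Quantile normalization and the treated arrays as 1 group ended the call too. C1QB, a chain of the complement starter C1q that macrophages make, ran from 4.28 through 5.51 to 6.35 with secretome, against 6.78, 6.30, 6.31 and 5.61 with placebo. Its second probe set gave -0.74 beside -0.75 ± 0.34 (limma p = 0.0441, exact p = 0.0747), and 13 of 25 settings ended the call, among them leaving out AMI/Placebo 1, 2 or 3, AMI/S-endMSCs 3 or 4, or AMI/S-endMSCs* 1, 2 or 4 (p up to 0.148).

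The mean of the complement and Fc list lay at -0.785 to 0.235 in the treated arrays with a median of -0.0239, against 0.558, 0.468, 0.339 and -0.257 in placebo arrays. Every treated array stood below 3 of the placebo arrays, and AMI/Placebo 4 stood below most treated arrays. The list median was -0.60 without AMI/Placebo 4 and -0.21 with the interquartile range as a covariate. Of 14 measured macrophage and monocyte markers, 1 fell (APOE), 0 rose and 7 were lower with both secretomes. Over all genes brighter than 2.78, 2.07% were called lower and 38.9% were lower with both. The list median was 0.00 with S-endMSCs, -0.75 with S-endMSCs* and -0.37 pooled. The pooled median was -0.22 without AMI/Placebo 2, -0.62 without AMI/Placebo 4 and -0.65 without AMI/S-endMSCs* 2. The level of these markers overlapped between treated (-0.883 to 0.81) and placebo arrays (-0.612 to 0.618), with AMI/S-endMSCs* 2 the highest of all. The part of this level in the complement result was not tested. APOE, the apolipoprotein that lipid-loaded macrophages secrete, ran from 3.45 through 4.07 to 4.68 with secretome, against 5.24, 4.85, 4.62 and 4.32 with placebo. Its difference was -0.68 ± 0.27 (limma p = 0.0222, exact p = 0.0303), and p rose to as much as 0.0933 without AMI/Placebo 1 or 2.

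Antigen presentation and innate sensing shared the direction with few calls. Of 9 measured MHC class II genes, 1 fell (SLA-DQB1), 0 rose and 8 were lower with both secretomes (median -0.21, and -0.36 without AMI/Placebo 4). SLA-DQB1, a chain of the pig class II molecule that presents peptides to helper T cells, ran from 5.0 through 5.41 to 6.27 with secretome, against 6.01, 5.83, 6.02 and 6.09 with placebo. AMI/S-endMSCs* 2 stood above every placebo array and far above its own biogroup, and leaving out AMI/Placebo 1, 3 or 4, AMI/S-endMSCs 1, 3 or 4, or AMI/S-endMSCs* 1, 3 or 4 ended the call (-0.52 ± 0.22, limma p = 0.0352, exact p = 0.0404; p up to 0.0737). Quantile normalization, moderation with a trend and leaving out the 3 arrays of lowest correlation also ended the call of SLA-DQB1. Of 11 MHC class I genes, 1 fell (SLA-7), 0 rose and 9 were lower with both (median -0.25, and -0.42 without AMI/Placebo 4 or -0.13 after quantile normalization). SLA-7, a non-classical class I gene, differed by -0.55 ± 0.25 (limma p = 0.0465, exact p = 0.0465), and 16 of 25 settings ended that call, such as leaving out AMI/Placebo 1, 3 or 4, AMI/S-endMSCs 1, 2 or 4, or AMI/S-endMSCs* 3 or 4 (p up to 0.148). SLA genes are close relatives, and probes of one can read another.

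Of 17 genes for Toll-like receptors and their adaptors, 1 fell (TICAM2), 0 rose and 13 were lower with both secretomes, with a median of -0.28. This median was -0.06 without AMI/Placebo 2, -0.18 without AMI/Placebo 1 and -0.13 with the interquartile range as a covariate. TICAM2, the bridging adaptor of TLR4 on endosomes, ran from 2.18 through 2.45 to 3.05 with secretome, against 2.99, 2.42, 3.40 and 3.23 with placebo. Only AMI/S-endMSCs 3 reached the 3 higher placebo arrays. The difference was -0.52 ± 0.23 (limma p = 0.0373, exact p = 0.0323), and leaving out AMI/Placebo 1, 3 or 4, AMI/S-endMSCs 1, 2 or 4, or AMI/S-endMSCs* 1 or 3 ended the call (p up to 0.14). So did leaving out the 3 arrays of lowest correlation together.

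The type I interferon response held 16 measured genes, of which 15 were lower with both secretomes and 0 passed the threshold. Its median was -0.42, with -0.37 for S-endMSCs and -0.42 for S-endMSCs*. The mean of the list was 1.1 and 0.898 in AMI/Placebo 1 and 2 but -0.491 and -0.453 in AMI/Placebo 3 and 4, beside -0.661 to 0.262 in the treated arrays. The higher placebo level came from a pair of pigs, and the median was -0.12 without AMI/Placebo 1, -0.19 without AMI/Placebo 2, -0.68 without AMI/Placebo 3 and -0.75 without AMI/Placebo 4. It was -0.16 with the interquartile range as a covariate. No such shift was present in the interferon gamma response (median 0.01, 10 genes), the TNF and NF-kappa B response (0.06, 16 genes), interleukins and their receptors (0.02, 25 genes) or T and NK cell markers (0.06, 18 genes), in each of which 0 genes were called.

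**Figure D3:**
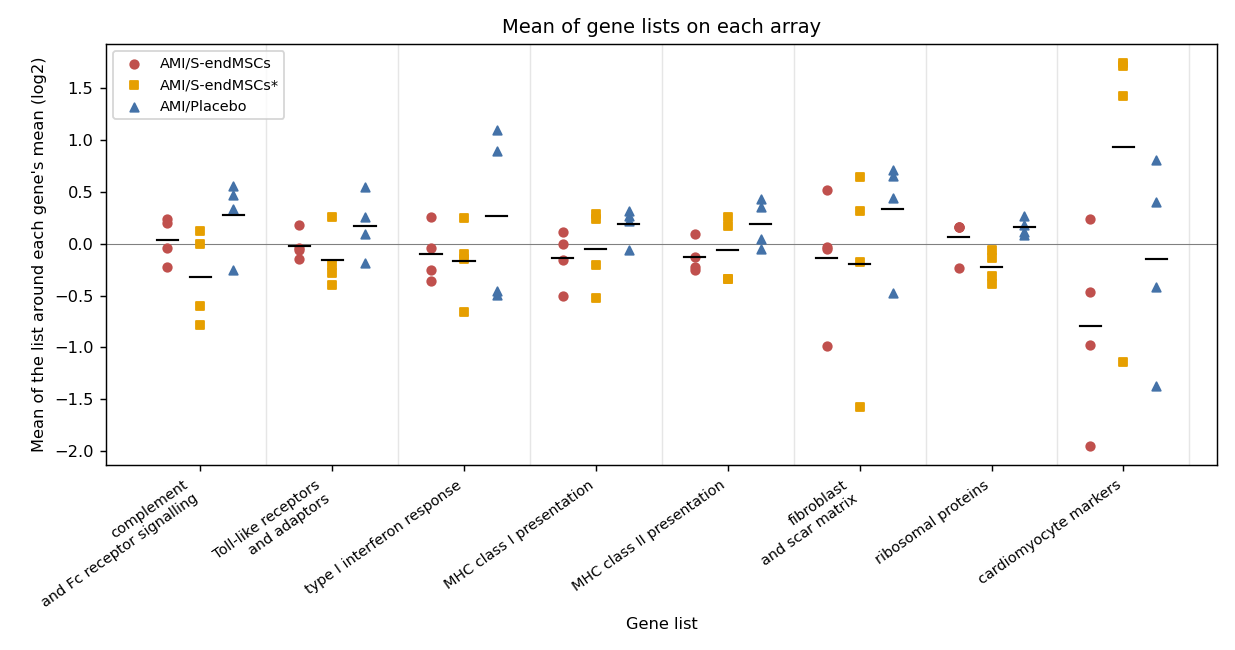
Mean of 8 gene lists on each array (log2, each gene centred on its mean over the 12 arrays), with AMI/S-endMSCs, AMI/S-endMSCs* and AMI/Placebo from left to right and a bar at each mean of 4 arrays. AMI/Placebo 4 lies apart from the other placebo arrays in the complement and matrix lists, the interferon list splits the placebo arrays 2 and 2, and cardiomyocyte markers spread most within the biogroups.

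Chemokine genes gave single higher calls. CXCR6, the receptor for CXCL16 on tissue-homing T cells, ran from 2.46 through a median of 3.04 to 3.85 with secretome, against 2.46, 2.43, 2.42 and 2.57 with placebo. All 4 S-endMSCs arrays and 3 of the S-endMSCs* arrays stood above every placebo array, at 0.59 ± 0.24 (limma p = 0.0295, exact p = 0.0222). This was the only call among 13 measured chemokine receptors. It was lost without AMI/Placebo 1, 2 or 3 and with the interquartile range as a covariate (p up to 0.063). CCL26, an eotaxin, was the only call among 28 chemokines. It ran from 2.29 through 2.51 to 2.96 with secretome, against 1.87, 2.01, 2.06 and 2.60 with placebo. The mean over all arrays was below the middle level of the probe sets. The difference was 0.46 ± 0.20 (limma p = 0.0396, exact p = 0.0242), and leaving out AMI/Placebo 1, 2 or 3, AMI/S-endMSCs 1 or 2, or AMI/S-endMSCs* 1 ended the call (p up to 0.127). So did the replicate block and, as covariates, the interquartile range and the cardiomyocyte level.

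Vessel genes did not move as a list. Of 15 angiogenesis factors, 2 fell (ANGPT2 and THBS1) and 0 rose, with a list median of 0.09 (-0.03 to 0.21 over the alternatives that used both secretomes), and of 8 endothelial markers 0 were called (median -0.17, and 0.02 without AMI/Placebo 1). ANGPT2, the angiopoietin that loosens vessel walls during sprouting, ran from 2.91 through 3.38 to 3.64 with secretome, against 4.59, 4.24, 3.66 and 3.34 with placebo. The 3 higher placebo arrays stood above every treated array. Its difference of -0.59 ± 0.24 (limma p = 0.0272, exact p = 0.0202) lost its call without AMI/Placebo 1 or 2 (p up to 0.139). PDE5A, the cGMP phosphodiesterase that sildenafil blocks, ran from 4.04 through 4.54 to 5.27 with secretome, against 5.85, 5.76, 5.02 and 4.74 with placebo. It differed by -0.72 ± 0.28 (limma p = 0.0211, exact p = 0.0263), a second probe set gave -0.42 (limma p 0.227), and the call was lost without AMI/Placebo 1 or 2 (p up to 0.0898). The mean over its probe sets ended the call too. PDE1C, a calcium-dependent phosphodiesterase, was the other of 2 calls among 14 phosphodiesterases (-0.54 ± 0.25, limma p = 0.0469, exact p = 0.0465), and it failed in 13 of 25 settings, such as without AMI/Placebo 1, 2 or 3, AMI/S-endMSCs 1 or 4, or AMI/S-endMSCs* 2 or 3 (p up to 0.183).

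Ribosomal protein genes were lower in most cases by small amounts. Of 30 measured, 2 fell (RPS2 and RPL4), 0 rose and 18 were lower with both secretomes. RPS2 read low on this scale (2.55-3.76), unlike RPL4 (8.55-10.13). The median was -0.22, with -0.09 for S-endMSCs and -0.42 for S-endMSCs*. The mean of the list ran from -0.393 to 0.163 in treated arrays, against 0.0878, 0.271, 0.177 and 0.114 in placebo arrays, so 3 S-endMSCs arrays lay among the placebo arrays and the S-endMSCs* arrays all lay below them. RPL4, of the large subunit, ran from 8.55 through 9.27 to 10.13 with secretome, against 9.997, 9.71, 9.91 and 9.76 with placebo. Apart from AMI/S-endMSCs 2 at 10.13, all treated arrays stood below placebo, at -0.54 ± 0.23 (limma p = 0.0329, exact p = 0.0404). Leaving out AMI/Placebo 1 or 3, AMI/S-endMSCs 1 or 4, or AMI/S-endMSCs* 3 ended the call (p up to 0.0848), as did the mean with its dim other probe sets (limma p 0.469). The call was also lost without the 3 arrays of lowest correlation. Genes of translation initiation gave 0 calls, with 10 of 15 lower in both and a median of -0.17. This median was -0.42 without AMI/Placebo 4, -0.09 without AMI/Placebo 1, -0.08 without AMI/Placebo 3 and -0.03 with the interquartile range as a covariate.

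In protein quality control and survival, BAG3, the co-chaperone that links HSP70 to autophagy and is needed in muscle, was the only call among 18 heat shock genes. It ran from 3.51 through 3.88 to 4.47 with secretome, against 3.44, 3.12, 3.10 and 3.65 with placebo. Of the treated arrays, 6 stood above all placebo arrays, and the difference of 0.59 ± 0.21 (limma p = 0.0158, exact p = 0.0121) missed the threshold without AMI/Placebo 2 or 3 (p up to 0.0556). The list itself had a median of -0.10, which ran from -0.42 without AMI/Placebo 4 to 0.09 with the interquartile range as a covariate. PSMB6, a catalytic subunit of the proteasome (-0.50 ± 0.23, limma p = 0.0496, exact p = 0.0465), and MCL1, an anti-apoptotic BCL2 relative (-0.69 ± 0.31, limma p = 0.0416, exact p = 0.0848), were the single lower calls of their lists (14 and 13 genes). In both, AMI/S-endMSCs 1 was the lowest of the 8 treated arrays, at 4.09 and 3.20. Without AMI/S-endMSCs 1 both calls were lost, as they were without AMI/Placebo 1, 2 or 3, AMI/S-endMSCs 4 or AMI/S-endMSCs* 2, 3 or 4 (p up to 0.167 in PSMB6 and 0.142 in MCL1). Both were also lost in other settings, among them the interquartile range as a covariate.

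NEB, ERBB4, ACSL1 and LPL, which share no gene list, were called higher in the pooled comparison and stood higher with S-endMSCs* than with S-endMSCs. Of 17 fatty acid oxidation genes, 1 rose (ACSL1), 0 fell and 12 had opposite signs with the 2 secretomes (median -0.10, ranging from -0.16 to 0.09 over the alternatives that used both secretomes), with medians of -0.59 for S-endMSCs and 0.47 for S-endMSCs*. Of 15 oxidative phosphorylation genes 0 were called and 13 had opposite signs (median 0.02, ranging from -0.19 to 0.28), with medians of -0.28 for S-endMSCs and 0.37 for S-endMSCs*. NEB, nebulin, the ruler protein of thin filaments, had the largest difference of the called members, 1.57 ± 0.54 (limma p = 0.0111, exact p = 0.135). Its values were 3.92, 4.38, 3.75 and 4.43 with S-endMSCs and 6.72, 4.77, 8.13 and 7.63 with S-endMSCs*, against 2.94, 3.87, 3.50 and 5.26 with placebo. The S-endMSCs arrays lay within the placebo range and 3 S-endMSCs* arrays far above it, so that the differences were 0.23 and 2.92. Its other 2 probe sets both gave 1.34, while without AMI/Placebo 1 (limma p 0.0507), with the treated arrays as 1 group and in the exact permutation test (p = 0.135) the pooled call was lost. ERBB4, the neuregulin receptor of heart muscle cells, ran from 2.95 through 4.03 to 4.87 with secretome, against 3.55, 3.31, 3.23 and 2.90 with placebo. It differed by 0.72 ± 0.28 (limma p = 0.0223, exact p = 0.0889), 0.25 with S-endMSCs and 1.18 with S-endMSCs*. The call was lost without AMI/Placebo 4 (limma p 0.0718), with the treated arrays as 1 group and in the exact permutation test (p = 0.0889).

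ACSL1, which activates long-chain fatty acids for oxidation, ran from 4.94 through 5.64 to 6.69 with secretome, against 5.12, 5.29, 4.88 and 5.37 with placebo. The difference was 0.60 ± 0.25 (limma p = 0.0314, exact p = 0.111), 0.14 with S-endMSCs and 1.07 with S-endMSCs*, and it was lost without AMI/Placebo 1 or 3, AMI/S-endMSCs 3 or 4, or AMI/S-endMSCs* 1 or 3 (p up to 0.098). Median centring, the treated arrays as 1 group and the exact permutation test ended the call too. LPL, lipoprotein lipase, was called in the pooled comparison (0.72 ± 0.28, limma p = 0.0235, exact p = 0.194) but is no member, since it differed by -0.03 with S-endMSCs and 1.47 with S-endMSCs*. Its pooled call was lost without AMI/Placebo 1 or 3 (p up to 0.0923), with the treated arrays as 1 group and in the exact permutation test. Cardiomyocyte markers moved beside these 4 genes: 14 of 15 had opposite signs, with a median of -0.49 with S-endMSCs and 1.12 with S-endMSCs*, and 0 were called in the pooled comparison (median 0.27, ranging from -0.11 without AMI/Placebo 3 to 0.69 with array weights). Their part in these results was not tested. With the cardiomyocyte level of each array as a covariate, the calls of NEB, ERBB4, ACSL1 and LPL held. That fit cannot part marker level from secretome. The highest marker means of all arrays were those of AMI/S-endMSCs* 1, 3 and 4 (9.01, 9.04 and 8.72).

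Hypoxia targets were called in both directions among 8 measured. CA9, the hypoxia-induced carbonic anhydrase, ran from 2.37 through 2.60 to 3.21 with secretome, against 1.99, 2.06, 1.96 and 2.13 with placebo. The groups did not overlap, at 0.66 ± 0.19 (limma p = 0.00431, exact p = 0.00202), and the call held under all 24 settings with both secretomes in which the gene was tested, but every value is low on the scale of these arrays. BNIP3L, a mitophagy receptor, ran from 6.24 through 6.90 to 7.46 with secretome, against 7.58, 7.90, 7.54 and 7.09 with placebo. Its difference was -0.57 ± 0.26 (limma p = 0.0484, exact p = 0.0485), and 13 of 25 settings ended the call, among them leaving out AMI/Placebo 1, 2 or 3, AMI/S-endMSCs 1 or 4, or AMI/S-endMSCs* 1, 3 or 4 (p up to 0.151). The median of the list was -0.25, and it was 0.02 with the interquartile range as a covariate, 0.01 without AMI/Placebo 2, -0.13 without AMI/S-endMSCs 1 and -0.41 without AMI/Placebo 4.

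The remaining members with the smallest p values came from several functions. FAM160A2, JMJD7 and CHERP passed the middle level of the probe sets by their treated mean only, and FMO5 and TMCO3 by their placebo mean only. FAM160A2, of the complex that couples endosomes to the motor dynein, ran from 2.89 through a median of 3.64 to 4.02 with secretome, against 2.80, 3.10, 2.47 and 2.07 with placebo. Only AMI/S-endMSCs 1 dropped under a placebo array, and the difference was 1.02 ± 0.23 (limma p = 0.000544, exact p = 0.00404), or 2.03-fold higher, with 0.79 for S-endMSCs and 1.26 for S-endMSCs*. RGCC, a regulator of the cell cycle that complement induces, ran from 3.56 through 4.10 to 4.65 with secretome, against 3.22, 3.10, 3.76 and 3.41 with placebo. A single treated array, AMI/S-endMSCs 4, overlapped, and the difference was 0.78 ± 0.24 (limma p = 0.00674, exact p = 0.0101), alike with S-endMSCs (0.80) and S-endMSCs* (0.75). CCDC181, a coiled-coil protein of microtubules, ran from 3.83 through 4.42 to 5.69 with secretome, against 3.08, 4.22, 4.16 and 3.65 with placebo. All treated arrays but AMI/S-endMSCs 4 stood above placebo, at 0.88 ± 0.27 (limma p = 0.00653, exact p = 0.0263).

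Genes of RNA processing and signalling followed. LUC7L, a splicing factor of the U1 particle, ran from 4.14 through 4.70 to 5.26 with secretome, against 4.10, 4.00, 4.54 and 3.80 with placebo. The S-endMSCs* arrays (4.63-5.26) all stood above placebo and 2 S-endMSCs arrays did not, at a difference of 0.64 ± 0.21 (limma p = 0.0082, exact p = 0.0182). In JMJD7, a Jumonji hydroxylase, RABL6, a Rab-like GTP-binding protein, and CHERP, an endoplasmic reticulum calcium homeostasis protein, the S-endMSCs arrays held the high values. JMJD7 stood at 3.42-4.28 with S-endMSCs and 2.58-3.30 with S-endMSCs*, against 2.46-3.04 with placebo (0.67 ± 0.21, limma p = 0.00753, exact p = 0.0485). RABL6 stood at 3.27-4.52 with S-endMSCs and 2.82-3.72 with S-endMSCs*, against 2.65-2.96 with placebo (0.76 ± 0.24, limma p = 0.00767, exact p = 0.0404). CHERP stood at 2.70-3.54 with S-endMSCs and 2.0-3.04 with S-endMSCs*, against 1.98-2.33 with placebo (0.69 ± 0.23, limma p = 0.00896, exact p = 0.0424). In all 3 genes the S-endMSCs arrays lay wholly above placebo and the S-endMSCs* arrays overlapped it. CHERP lost its call without the 3 arrays of lowest correlation (limma p 0.0573).

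Among lower members, FMO5, a flavin monooxygenase, ran from 1.70 through 1.87 to 2.56 with secretome, against 2.99, 3.19, 2.72 and 2.36 with placebo. AMI/S-endMSCs* 1 alone overlapped, at -0.83 ± 0.22 (limma p = 0.00191, exact p = 0.00404). DHRS9, a retinol dehydrogenase, ran from 3.41 through 3.73 to 4.02 with secretome, against 4.39, 5.11, 3.97 and 4.40 with placebo. Only AMI/S-endMSCs* 2 overlapped, and the difference was -0.76 ± 0.22 (limma p = 0.00368, exact p = 0.00404). TMCO3, a transmembrane protein related to ion exchangers, ran from 2.09 through 2.61 to 3.46 with secretome, against 3.64, 3.58, 3.75 and 2.83 with placebo, and SNAPIN, a SNARE-associated subunit of the lysosome transport complex BORC and of BLOC-1, from 2.92 through 3.72 to 4.73, against 4.8, 5.52, 4.22 and 4.69. Their differences were -0.84 ± 0.24 (limma p = 0.00374, exact p = 0.0162) and -1.02 ± 0.33 (limma p = 0.00735, exact p = 0.0222), and the treated arrays overlapped 1 placebo array in TMCO3 and 2 in SNAPIN. ABCG2, an efflux transporter, fell at its brightest probe set (4.32-5.85 with secretome, against 6.17, 6.15, 6.61 and 5.38 with placebo, -0.90 ± 0.25, limma p = 0.00326, exact p = 0.00404) but not at the other 2 (0.09, limma p 0.825 and -0.26, limma p 0.297), and the mean over the 3 missed the threshold (limma p 0.107).

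Of the 13 genes that the study names, 4 were called here: CXCR6 rose, and APOE, THBS1 and CDC42 fell. The paper compared biogroups with one another, while the treated arrays are pooled here, and RPS3 served it only as the stable qPCR reference. For BCL6, STAT3, IGF1R, CDC42 and BMP6 it reports that qPCR did not bear out the array in a single biogroup. CDC42, which directs cell polarity, ran from 7.58 through 8.11 to 8.57 with secretome, against 8.75, 8.77, 8.89 and 8.17 with placebo. All treated arrays stood below 3 placebo arrays, and the difference of -0.58 ± 0.25 (limma p = 0.034, exact p = 0.0343) was lost without AMI/Placebo 1, 2 or 3, AMI/S-endMSCs 1 or 4, or AMI/S-endMSCs* 3 (p up to 0.0993). The interquartile range as a covariate ended the call too. This list was chosen by the study on these arrays and is no independent evidence of direction. CXCR3, the receptor for interferon-induced chemokines, ran from 3.17 through 3.27 to 3.90 with secretome, against 3.42, 3.40, 4.32 and 4.88 with placebo. A pair of placebo arrays stood above all others, and the difference was -0.59 ± 0.28 (limma p = 0.0535, exact p = 0.0485). ACKR2, a decoy receptor that removes chemokines, ran from 3.17 through 3.57 to 4.37 with secretome, against 3.14, 3.05, 3.16 and 3.54 with placebo (0.45 ± 0.22, limma p = 0.0586, exact p = 0.0646). STAT3, BMP6 and RPS3 differed by -0.24, -0.07 and -0.21 (p from 0.3 to 0.757), although other probe sets of STAT3 (-0.97, limma p 0.031) and BMP6 (0.66, limma p 0.0139) passed the threshold. BCL6, IGF1R, LIF and TFRC had opposite signs with the 2 secretomes and pooled differences of -0.30, -0.24, -0.19 and 0.29.

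Both differences from placebo use the same 4 placebo arrays, so a shared sign is partly built in, and they are given side by side only. The secretomes themselves were compared in the same model: S-endMSCs* differed from S-endMSCs in 795 genes (7.29%) at an unadjusted p under 0.05, among them 29 of the 298 members. In NEB (2.69), ACSL1 (0.93), ERBB4 (0.93), CCDC181 (0.82), TMCO3 (0.61) and LUC7L (0.55), S-endMSCs* lay above S-endMSCs. In RABL6 (-0.84), JMJD7 (-0.83), TYROBP (-0.81) and CHERP (-0.74) it lay below. Among the named members, those with the most similar differences included LYN (-0.54 with S-endMSCs and -0.55 with S-endMSCs*), FREM1, CA9 (0.64 and 0.68), DHRS9 (-0.78 and -0.74) and RGCC. A missed threshold does not show that the secretomes act alike in these genes.

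**Figure D4:**
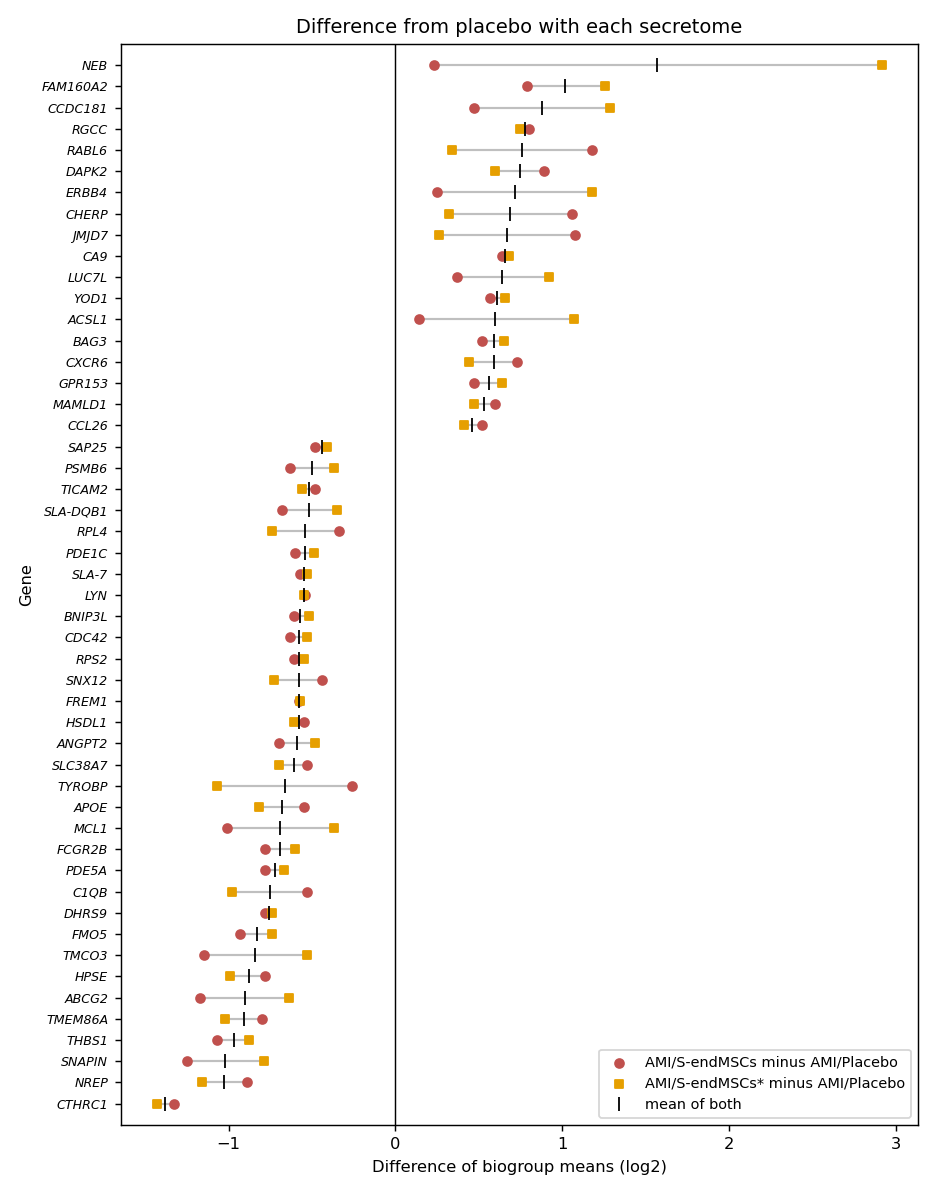
Difference from AMI/Placebo (log2) with S-endMSCs (circles) and with S-endMSCs* (squares) for 50 named members, ordered by the mean of both (tick). NEB spans 0.23-2.92 and the genes ERBB4, ACSL1, RABL6 and TYROBP also lie far apart, while LYN, FREM1, CA9 and DHRS9 nearly coincide.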

How the data were processed

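Infarcted tissue of 12 pigs was hybridised to Affymetrix porcine gene arrays. The authors corrected the background, normalized the arrays and summarised probe sets with RMA in the package oligo (versions not stated), and the deposited values are on the log2 scale. The number of arrays limits the precision. The table held 27558 probe sets, and 0 columns were left unmapped. Of the probe sets, 11982 had 1 gene symbol in the platform annotation, 373 had several and 15203 had none here, and 969 of the 10912 genes had more than 1 probe set, of which the one with the highest mean over the 12 arrays was used. No genome build or sequence was used.

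A mean per biogroup was fitted to all probe sets with limma 3.58.1 in R 4.3.3 (lmFit, eBayes), and the mean of both treated biogroups was contrasted with AMI/Placebo. Benjamini-Hochberg adjustment was made over all 27558 probe sets, of which 862 were called without adjustment and 0 with it. Single genes were also tested by exact permutation, two-sided. p-values measure the spread between single pigs. The fit was tested on simulated data. Figures were drawn with Python 3.11.15.

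Named genes were up to 12 per direction with no overlap and the largest difference, up to 8 more per direction with the smallest p, up to 4 called members of each of 54 lists, and 13 genes named in the study. The first 2 kinds had the same sign in both biogroups and a treated or placebo mean above the median level. A gene could pass that level through the group where it was higher. Members and lists were chosen with earlier results of these data known. Alternatives were centring on medians, quantiles, dropping dim probe sets, 1 treated group, other moderation, array weights, the replicate block, 2 covariates, the mean over probe sets, each secretome alone and leaving out arrays. Results of 1 list are not reported here. Other data of the study were not analysed here.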

Additional observations from a re-analysis of the deposited data

Results flagged for a closer look

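Single arrays stood apart from the rest of their group, by Dixon's ratio at the 95% level, in 12 of the named genes. Chance alone flags about 1 in 20 groups. All 62 named genes were checked, within each biogroup and among the 8 treated arrays, so these flags are not set apart from chance. With S-endMSCs, YOD1 was 3.31 in AMI/S-endMSCs 3. With S-endMSCs*, HSDL1 was 2.29 in AMI/S-endMSCs* 4, ABCG2 was 5.85 in AMI/S-endMSCs* 1, SLA-DQB1 was 6.27 in AMI/S-endMSCs* 2 and LIF was 1.96 in AMI/S-endMSCs* 3. Among all 8 treated arrays, AMI/S-endMSCs 1 was lowest in FAM160A2 (2.89), PSMB6 (4.09) and MCL1 (3.20), and AMI/S-endMSCs* 4 was lowest in STAT3 (5.82). Among placebo arrays, AMI/Placebo 4 was lowest in LYN (2.88) and FCGR2B (3.80), AMI/Placebo 1 was highest in IGF1R (5.43) and AMI/Placebo 3 was lowest in LIF (2.34).

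In the limma contrast of S-endMSCs* minus S-endMSCs, 15 of the 62 named genes had an unadjusted p under 0.05, beside 7.29% of all genes. Their adjusted p was 0.552 or more. The exact permutation test over 70 divisions of the 8 arrays has a smallest two-sided p of 0.0286. IGF1R, TFRC, LIF and BCL6 were named here only because the study chose them on these same arrays. S-endMSCs* was higher in NEB (2.69, limma p = 0.000703, exact p = 0.0286), LPL (1.49, limma p = 0.000437, exact p = 0.0286), IGF1R (1.16, limma p = 0.00149, exact p = 0.0286), TFRC (0.96, limma p = 0.00221, exact p = 0.0286), ACSL1 (0.93, limma p = 0.00648, exact p = 0.0857), ERBB4 (0.93, limma p = 0.0118, exact p = 0.0857), CCDC181 (0.82, limma p = 0.0211, exact p = 0.0571), TMCO3 (0.61, limma p = 0.0453, exact p = 0.0571) and LUC7L (0.55, limma p = 0.0388, exact p = 0.0571). It was lower in RABL6 (-0.84, limma p = 0.0102, exact p = 0.0571), JMJD7 (-0.83, limma p = 0.00506, exact p = 0.0286), LIF (-0.83, limma p = 0.0186, exact p = 0.0286), TYROBP (-0.81, limma p = 0.0175, exact p = 0.0857), CHERP (-0.74, limma p = 0.0134, exact p = 0.0571) and BCL6 (-0.62, limma p = 0.0451, exact p = 0.0857).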

How the results depend on the processing

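The number of calls moved with single arrays. Leaving out 1 array gave 184 to 778 calls (90 to 287 higher, 94 to 491 lower) and 26 to 190 called genes with no overlap, the highest without AMI/Placebo 4 in all 4 counts; the lower calls were 94 without AMI/Placebo 1 and without AMI/S-endMSCs* 4. Leaving out AMI/Placebo 4, AMI/S-endMSCs 1 and AMI/S-endMSCs* 4 together, an alternative chosen after seeing the data, gave 567 calls (245 higher, 322 lower) and 203 with no overlap. Array weights gave 906 calls (416 higher, 490 lower), and among probe sets 1 passed adjustment (adjusted p = 0.0216), which is none of the genes described. Median centring gave 90 higher calls. A filter on dim probe sets gave 171 calls, 59 higher, and 12 with no overlap. S-endMSCs alone against placebo gave 484 calls, 284 higher, and 167 with no overlap, and S-endMSCs* alone gave 213 higher and 102 with no overlap, where 4 arrays against 4 separate more easily. The called genes that are no members turned sign with 1 secretome alone, LPL at -0.03 with S-endMSCs and LOC100155266 at -0.05 with S-endMSCs*. The replicate block gave 353 calls (136 higher, 217 lower). Same-numbered arrays of different biogroups deviated together with correlations of -0.184 to 0.397 (median 0.0474), over 0.1 in 4 of 12 pairs. Arrays of other numbers gave -0.473 to 0.391 (median -0.027), over 0.1 in 10 of 36 pairs. Whether the numbers pair the pigs was not tested. Of the 53 named genes that were called, 21 kept their call under all settings that used both secretomes, 32 lost it in at least 1 of these, and 16 in 5 or more. Named genes were picked on these same arrays, so a kept call is no independent support. Of the 21, 7 lost it against placebo with 1 secretome alone: CCDC181, LUC7L and SNX12 with S-endMSCs (limma p 0.164, 0.149 and 0.0558), and JMJD7, RABL6, TMCO3 and SNAPIN with S-endMSCs* (limma p 0.314, 0.246, 0.0767 and 0.0551). The causes were not tested.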
